A study of Mus musculus with 4 samples.

Results

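Integrins and laminins were measured in cultures grown from satellite cells, the muscle stem cells, of mice. The cultures were harvested after knockdown of the long non-coding RNA LncMyoD or after control siRNA. The members were all rows whose symbol is that of an integrin alpha chain, an integrin beta chain or a laminin chain, 37 of the 54446 genes in the table. They comprised 18 integrin alpha, 8 integrin beta and 11 laminin genes, and the rule reads only the symbol. Integrins are cell surface receptors made of an alpha and a beta chain, and they link the matrix outside the cell to the actin skeleton inside. Laminins are trimers of an alpha, a beta and a gamma chain, and they form the basement membrane that wraps each muscle fibre and the satellite cell on it. In skeletal muscle the receptor made of Itga7 and Itgb1 binds laminin that contains the Lama2 chain, and loss of Lama2 or Itga7 causes muscle disease in mice and people.

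The 2 groups, with 2 samples each, were LncMyoD knockdown and control siRNA. Cells of both groups came from hindlimb muscle of C57BL/6 mice, were cultured in F10 with 10% HS, and were harvested after 48 h of siRNA. The control samples carry a treatment text that names LncMyoD too, so the grouping rests on titles, descriptions and treatment tags. The age and sex of the animals and the source of the replicates (separate cultures or animals) are not stated, so the p-values reflect the spread among these 4 samples, part or all of which may be technical.

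The values are used as the authors deposited them. They are read as FPKM (fragments per kilobase of transcript, relative to all mapped fragments), since no label names the unit. For a 1 kb transcript, 1 FPKM stood for about 36.7 and 41.1 reads of 150 nt in knockdown replicates 1 and 2, and for 39.2 and 39.0 in control replicates 1 and 2. Differences were tested with limma on log2(FPKM + 1) for the 10900 genes that averaged 1 FPKM or more, and p-values were adjusted over all of them by the Benjamini-Hochberg method. The level of LncMyoD itself was not analysed here. The 8 satellite cell and myoblast markers summed to 4379 and 3955 FPKM in knockdown cells against 5374 and 5096 in control. Most of that sum was Myog, the myogenin of differentiating myoblasts, with 3406 and 2793 FPKM in knockdown cells against 4196 and 3931 in control (limma adjusted p = 0.607). Myod1 had 583 and 667 FPKM in knockdown cells and 698 and 691 in control, while Pax7, a defining marker of satellite cells, averaged 0.975 FPKM over all samples. Some defining markers of other cell types were low. Ptprc and Kdr were listed at 0 in all samples, Cdh5 reached 0.0318 FPKM and Sox10 0.0124. Others were higher. The endothelial marker Tek had 2.45 and 1.27 FPKM in knockdown cells against 0.801 and 1.78 in control. The leukocyte marker Cd14 had 2.87 and 1.06 against 1.74 and 1.05, and Laptm5 had 0.724 and 1.83 against 1.05 and 0.907. Summed levels in knockdown replicates 1 and 2 and control replicates 1 and 2 were 2.69, 1.41, 1.15 and 1.81 FPKM over 8 endothelial markers, and 4.51, 5.25, 4.46 and 4.12 over 11 leukocyte markers. The 7 smooth muscle and pericyte markers summed to 2.33 and 3.12 FPKM in knockdown cells and 3.13 and 2.80 in control. The 7 fibro-adipogenic markers summed to 5.20 and 5.12 FPKM in knockdown cells against 2.30 and 1.51 in control. Most of that sum was Cd34, which satellite cells also express, with 4.52 and 4.62 FPKM in knockdown cells against 1.36 and 1.17 in control (limma adjusted p = 0.265). The other 6 fibro-adipogenic markers had at most 0.539 FPKM in any sample, and none was listed at 0 in all 4. The part of the myoblast and fibro-adipogenic marker differences in the results below was not tested.

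Of the 37 members, 13 had a mean of at least 1 FPKM and could be tested, which are 3 integrin alpha, 3 integrin beta and 7 laminin genes. By limma, none of the 13 was called at an adjusted p under 0.05, where 0.0550% of all genes tested were called, 6 in number. At an unadjusted p under 0.05 there were 0 members higher and 0 lower, where 4.39% of all genes were higher and 2.70% lower. The lowest unadjusted p of a member was 0.0524, for Itgb1. Both knockdown samples lay above both controls for 5 of the 13 members and below for 2, where the shares over all genes were 22.1% above and 16.3% below. The 5 include Lama5, which had a control mean of 0.863 FPKM and so passed the filter through the knockdown samples. Lama5 also counts among the 7 laminins in the median that follows. The median log2 fold change was 0.07 for the integrin alpha genes, 0.30 for the integrin beta genes and -0.18 for the laminins, beside 0.026 for all genes tested. Without the filter on low values the integrin alpha median was -0.020 over 14 genes. As each family median of tested genes covers between 3 and 7 genes, it describes those genes and nothing wider.

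**Figure D1:**
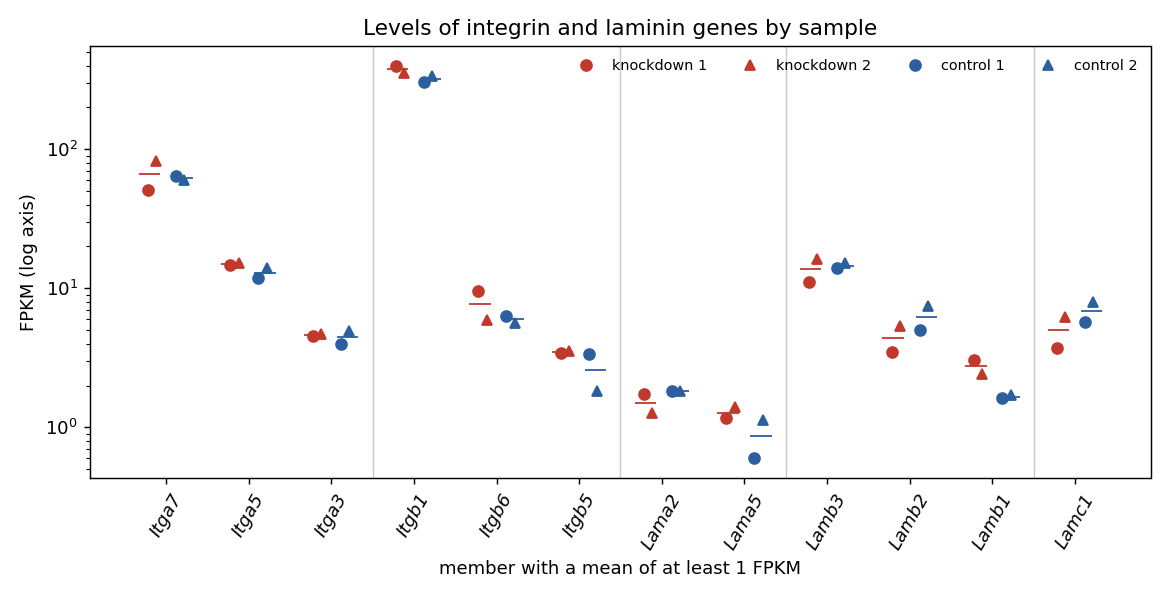
FPKM on a log axis of 12 of the members with a mean of at least 1 FPKM, with knockdown samples in red left of controls in blue; lines are group means of 2 samples. Itgb1 stands at 304 to 400 FPKM, above the next member Itga7 at 51.3 to 82.5, and Lamb1 is among the members whose groups do not overlap.

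Among the integrin beta chains, Itgb1, the partner of most laminin and fibronectin receptors, held nearly all of the signal. Itgb1 (chromosome 8, 128685654 to 128733200, plus strand, GRCm38) had 400.001 and 356 FPKM in knockdown cells against 304 and 336 FPKM in control. Both knockdown samples were higher than both controls, and knockdown replicate 1 was the highest of the 4. In RNA of whole cultures, a change in the number of cells of a type and a change in RNA per cell cannot be told apart. Its means were 378 ± 31.4 FPKM in knockdown cells and 320 ± 23.0 FPKM in control (SD, n = 2 each), 18.0% higher in knockdown. The log2 fold change was 0.24 with a 95% interval of -0.0034 to 0.48 and a limma adjusted p of 0.698, so the difference did not pass. It ranged from 0.15 without knockdown replicate 1 to 0.32 without knockdown replicate 2. Estimates of 55928 and 55679 reads stood behind the knockdown values, and of 45400 and 50070 behind the controls. Itgb1 made up 96.4% and 97.1% of the summed FPKM of the 8 beta chains in knockdown, against 96.5% and 97.5% in control.

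The other 2 tested beta chains, Itgb6 and Itgb5, are known to pair with Itgav in receptors that bind vitronectin, fibronectin or latent TGF-beta. Itgb6 (chromosome 2, 60598292 to 60722643, minus strand) showed 9.56 and 5.94 FPKM in knockdown cells against 6.32 and 5.64 in control. Only knockdown replicate 1 stood apart, and the groups overlapped. Its log2 fold change of 0.30 (95% interval -0.29 to 0.88, limma adjusted p 0.822) was -0.0068 without that sample. Itgb5 (chromosome 16, 33829665 to 33949338, plus strand) showed 3.44 and 3.53 FPKM in knockdown cells against 3.37 and 1.83 in control, so that control replicate 2 was the low one. Its log2 fold change of 0.35 (95% interval -0.29 to 0.99, limma adjusted p 0.807) was 0.04 without control replicate 2 and 0.66 without control replicate 1.

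Among the alpha chains, Itga7, the laminin receptor chain of muscle, was the most abundant. Itga7 (chromosome 10, 128933818 to 128958282, plus strand) showed 51.3 and 82.5 FPKM in knockdown cells against 64.5 and 59.7 in control. The knockdown samples lay on opposite sides of both controls. Their mean was 66.9 ± 22.1 FPKM, against 62.1 ± 3.44 FPKM in control (SD, n = 2 each). A log2 fold change of 0.07 (95% interval -0.46 to 0.60, limma adjusted p 0.962) was 0.41 without knockdown replicate 1 and -0.27 without knockdown replicate 2. Itga7 made up 70.7% and 79.1% of the summed FPKM of the 18 alpha chains in knockdown cells and 78.8% and 73.4% in control.

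Itga5, whose receptor with Itgb1 binds fibronectin, came next. Itga5 (chromosome 15, 103344286 to 103366763, minus strand) showed 14.8 and 15.3 FPKM in knockdown cells against 11.9 and 14.1 in control. Both knockdown samples were higher than both controls, with control replicate 2 close to them. Its log2 fold change was 0.21 (95% interval -0.16 to 0.57, limma adjusted p 0.802). It was 0.092 without control replicate 1 and 0.32 without control replicate 2. Itga3, a chain of a further laminin receptor, had 4.51 and 4.69 FPKM in knockdown cells and 3.99 and 4.94 in control, with overlapping groups. Its log2 fold change of 0.04 (95% interval -0.43 to 0.51, limma adjusted p 0.973) turned to -0.02 with quantile normalization and to -0.08 without control replicate 1.

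Per kilobase of transcript, the beta chains together outweighed the alpha chains in every sample. Their sums were 415 and 366 FPKM in knockdown cells against 315 and 345 in control, while the alpha chains summed to 72.5 and 104 in knockdown cells against 81.9 and 81.3 in control. The ratio of beta to alpha was 5.72 and 3.51 in knockdown cells and 3.84 and 4.25 in control, so the 2 knockdown samples enclosed the controls. These sums are of transcripts and not of receptors.

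**Figure D2:**
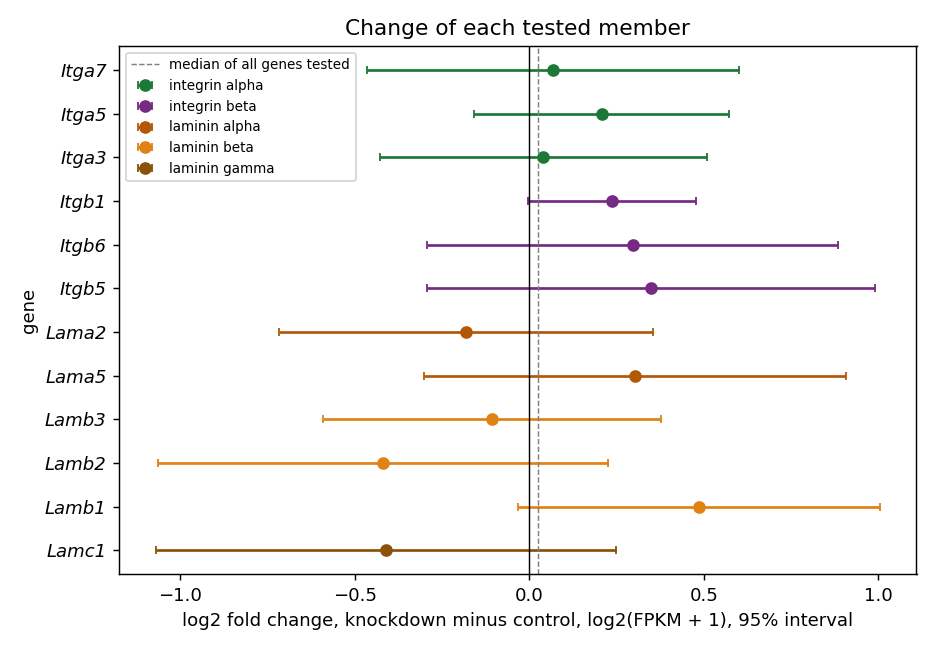
Log2 fold change of 12 of the tested members, knockdown minus control on log2(FPKM + 1), with 95% limma intervals; the dashed line is the median of all genes tested, 0.026. All 12 intervals include 0, and those of Itgb1 and Lamb1 only just do.

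The laminin beta chains went in different directions. Lamb1, the beta chain of laminins widespread in embryonic and adult tissue, was higher in knockdown, with 3.07 and 2.43 FPKM against 1.63 and 1.70 in control. The groups did not overlap, and the controls lay close together. Lamb1 (chromosome 12, 31265234 to 31329644, plus strand) averaged 2.75 ± 0.455 FPKM in knockdown cells and 1.66 ± 0.0506 FPKM in control (SD, n = 2 each), a ratio of 1.65. The log2 fold change of 0.49 was the largest of the 13 members, with a 95% interval of -0.03 to 1.01 and a limma adjusted p of 0.698. It stayed between 0.36 and 0.61 when each sample was left out in turn.

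Lamb2, the beta chain that marks the neuromuscular synapse, had 3.49 and 5.37 FPKM in knockdown cells against 5.05 and 7.44 in control. Knockdown replicate 1 was the lowest and control replicate 2 the highest, and the groups overlapped. Its log2 fold change (chromosome 9, 108479736 to 108490530, plus strand) was -0.42, with a 95% interval of -1.06 to 0.22 and a limma adjusted p of 0.767. It was -0.17 without knockdown replicate 1 and -0.18 without control replicate 2. The ratio of Lamb1 to Lamb2 was 0.881 and 0.452 in knockdown cells against 0.322 and 0.229 in control. This ratio was chosen after the values were seen, and it is given with no test.

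Lamb3, a beta chain best known from the basement membrane of skin, was the most abundant laminin gene in these cells. It had 11.2 and 16.2 FPKM in knockdown cells against 13.9 and 15.2 in control. The knockdown samples enclosed the controls, and the log2 fold change of -0.11 (95% interval -0.59 to 0.38, limma adjusted p 0.937) was 0.14 without knockdown replicate 1. Lamb3 (chromosome 1, 193207699 to 193343878, plus strand) made up 63.0% and 67.5% of the summed beta chain FPKM in knockdown cells and 67.6% and 62.5% in control.

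The stretches upstream of 3 of these genes are printed because Lamb1 and Lamb2 had log2 fold changes of opposite sign and Itgb1 was the most abundant member. Each covers the 250 bases before the gene's start as RefSeq places it on GRCm38.p6, and all lie on the plus strand. The gene coordinates given above are from GENCODE, whose starts lie further upstream for Lamb1 and Lamb2, so that the last 59 and 126 bases of those windows fall inside the GENCODE gene. The Itgb1 window ends just before the GENCODE start. RefSeq windows were found for 23 of the 37 members. Capitals mark the E-box CANNTG, the motif bound by Myod1 and its relatives, which reads the same on both strands.

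Itgb1 (chr8:128685404-128685653): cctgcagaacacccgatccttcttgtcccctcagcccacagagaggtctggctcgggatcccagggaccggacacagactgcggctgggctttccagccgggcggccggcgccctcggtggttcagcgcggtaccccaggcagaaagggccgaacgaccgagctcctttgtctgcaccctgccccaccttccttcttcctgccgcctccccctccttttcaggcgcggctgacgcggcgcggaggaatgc
Lamb1 (chr12:31265043-31265292): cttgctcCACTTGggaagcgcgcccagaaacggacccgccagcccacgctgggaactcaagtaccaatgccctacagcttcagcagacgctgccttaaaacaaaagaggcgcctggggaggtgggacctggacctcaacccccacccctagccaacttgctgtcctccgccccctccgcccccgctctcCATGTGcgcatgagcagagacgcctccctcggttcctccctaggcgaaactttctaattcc
Lamb2 (chr9:108479612-108479861): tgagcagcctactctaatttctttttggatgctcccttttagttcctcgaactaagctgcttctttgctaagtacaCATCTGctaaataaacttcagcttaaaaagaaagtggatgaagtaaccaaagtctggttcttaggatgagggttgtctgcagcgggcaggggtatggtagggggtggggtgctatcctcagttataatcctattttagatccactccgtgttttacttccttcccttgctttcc

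The Lamb1 window held 2 matches, beginning 243 and 61 bases before the RefSeq start, and the Lamb2 window held 1, beginning 174 bases before it. The Itgb1 window held 0. Of all 32851 windows of this length, 66.2% held at least 1 match, and the median was 1. Over the members, 21 of 26 windows held at least 1. A match of these letters is a description and not a bound site.

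Lamc1, the gamma chain of most laminins of muscle, had 3.74 and 6.27 FPKM in knockdown cells against 5.77 and 7.98 in control. The groups overlapped, and the 4 samples took the same order as for Lamb2, with knockdown replicate 1 lowest and control replicate 2 highest. The log2 fold change of Lamc1 (chromosome 1, 153218922 to 153332786, minus strand) was -0.41, with a 95% interval of -1.07 to 0.25 and a limma adjusted p of 0.775, and it was -0.10 without knockdown replicate 1.

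Of the alpha chains, only Lama2 and Lama5 reached a mean of 1 FPKM. Lama2, the alpha chain of the muscle basement membrane, had 1.74 and 1.27 FPKM in knockdown cells against 1.83 and 1.84 in control. Both knockdown samples were lower, replicate 1 barely so, and the log2 fold change was -0.18 (95% interval -0.72 to 0.35, limma adjusted p 0.890). It was -0.046 without knockdown replicate 2 and -0.32 without knockdown replicate 1. An antisense gene covers 3.86% of the exonic bases of Lama2 (chromosome 10, 26980036 to 27619758, minus strand), and the strand setting is not given. That antisense gene was listed at 0 in all samples. Lama5, an alpha chain of many adult basement membranes, had 1.16 and 1.40 FPKM in knockdown cells against 0.600 and 1.13 in control. Both knockdown samples were higher, control replicate 2 nearly reached them, and the log2 fold change (chromosome 2, 180176373 to 180225859, minus strand) was 0.30 (95% interval -0.30 to 0.91, limma adjusted p 0.823). It was 0.099 without control replicate 1 and 0.51 without control replicate 2, and without knockdown replicate 2 Lama5 fell under the filter. Its mean over all samples was 1.07 FPKM and its control mean 0.863, so it passed the filter through the knockdown samples. About 484 and 653 reads stood behind the knockdown values of Lama5 and 268 and 500 behind the controls.

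Summed per kilobase, the laminin beta chains gave 17.7 and 24.0 FPKM in knockdown cells and 20.6 and 24.3 in control. The alpha chains gave 2.91 and 2.68 FPKM in knockdown cells and 2.43 and 2.96 in control, below the beta chains in each sample.

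**Figure D3:**
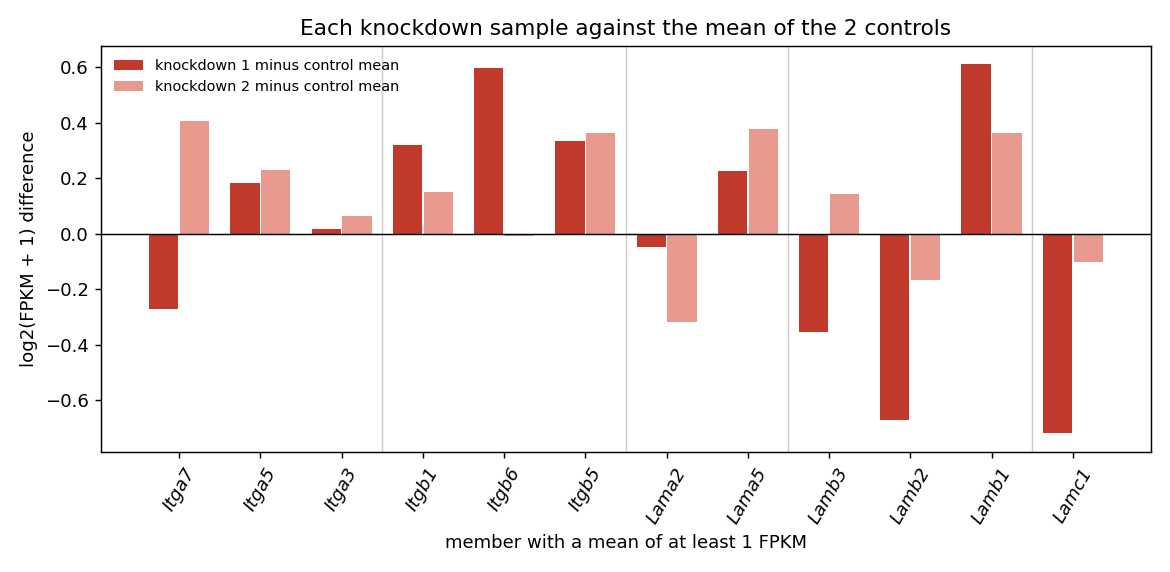
Difference of knockdown replicate 1 (dark) and knockdown replicate 2 (light) from the mean of the 2 controls, on log2(FPKM + 1), for 12 of the tested members. The replicates point in opposite directions for Itga7, Lamb3 and Itgb6, the last with only -0.0068 in replicate 2. For Itgb6, Lamb2 and Lamc1 most of the difference lies in replicate 1.

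The family medians of the 2 knockdown samples had the same sign but unlike sizes, and single members such as Itga7 and Lamb3 took opposite directions. Relative to the control mean, knockdown replicate 1 had a median of -0.30 over the 7 tested laminins and knockdown replicate 2 one of -0.10, beside 0.0077 and 0.05 over all genes tested. Over the 3 beta integrins it was 0.33 in replicate 1 and 0.15 in replicate 2. Over the 3 alpha integrins it was 0.02 in replicate 1 and 0.23 in replicate 2.

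The remaining 24 members had a mean below 1 FPKM and were not tested. Of these, 6 were listed at 0 in all samples: Itga2, a collagen receptor chain, Itgal, Itgam and Itgax, the chains of leukocyte integrins, and the laminin chains Lama1 and Lama4. Itgb2, the beta chain of those leukocyte integrins, had 0.225 and 0.243 FPKM in knockdown cells against 0.0987 and 0 in control, on about 24 and 30 reads in knockdown cells and 11 in control replicate 1. Of the 11 leukocyte markers, 3 were listed at 0 in all samples, among them Ptprc, the general one. Another 3 reached 1 FPKM in at least 1 sample. Among these, Cd14 had 2.87 and 1.06 FPKM in knockdown cells and 1.74 and 1.05 in control. The source of the Itgb2 reads was not tested.

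Some chains known to form receptors or trimers with more abundant members were low. Itgav, the alpha partner of Itgb5 and Itgb6, had 0.530 and 1.09 FPKM in knockdown cells and 0.715 and 0.976 in control, below both beta chains in each sample. Lama3, the alpha chain that joins Lamb3 in epithelial laminin, had 0.00239 and 0.00897 FPKM in knockdown cells and was listed at 0 in both controls. Itga4, a receptor chain for Vcam1, did not exceed 0.0238 FPKM in any sample. Itgb4, the chain that pairs with Itga6 in hemidesmosomes, had 1.36 and 0.473 FPKM in knockdown cells and 1.01 and 1.15 in control, with knockdown replicate 2 low. Itga6 had 1.09 and 0.357 FPKM in knockdown cells against 0.308 and 0.289 in control, so that knockdown replicate 1 alone stood apart, with about 172 reads against 49 to 63 in the others. The 5 epithelial markers summed to 0.561 and 0.228 FPKM in knockdown cells and 0.261 and 0.050 in control. Of these, Cdh1 and Krt8 were listed at 0 in all samples, Krt14 had 0.142 and 0.213 FPKM in knockdown cells and 0.261 and 0.050 in control, and Epcam had 0.391 and 0.0155 FPKM in knockdown cells and was listed at 0 in control. Krt5 had 0.0276 FPKM in knockdown replicate 1 and was listed at 0 in the others.

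The other low members gave scattered values. Lamc3, a gamma chain with restricted expression, had 0.849 and 0.310 FPKM in knockdown cells and 0.559 and 0.312 in control, which overlapped. Itgb8 had 0.135 and 0.273 FPKM in knockdown cells against 0.113 and 0 in control. Itgb3, a partner of Itgav and of the platelet chain Itga2b, had 0.0349 and 0.303 FPKM in knockdown cells and was listed at 0 in both controls. Itga2b overlapped between groups, with 0.205 and 0.0663 FPKM in knockdown cells and 0.140 and 0.436 in control. Itga8 had 0.589 FPKM in control replicate 2 and at most 0.0586 in the other 3, and an antisense gene covers 5.05% of its exonic bases. Larger shares of exonic bases lie in other genes for Itgam (68.7%), Itga10 (33.5%) and Itgad (19.7%), and reads there may be counted for either gene. The gene that overlaps Itgam, on the same strand, was listed at 0 in all samples too, and so was the one that overlaps Itga10. Of the genes that overlap Itgad, Cox6a2, on the other strand, had 6.54 to 17.6 FPKM. The collagen receptor chains Itga1 and Itga11 were lower in both knockdown samples, on at most 39 reads each. Itga1 had 0 and 0.0257 FPKM in knockdown cells against 0.0909 and 0.0662 in control, and Itga11 had 0 and 0.0283 against 0.0918 and 0.139. A gene on the same strand, which reached 1.55 FPKM, covers 3.68% of the exonic bases of Itga1, and reads there may be counted for either gene. Itga9, Itga10, Itgad, Itgae and Itgb7 had at most 0.172 FPKM in any sample and were listed at 0 in at least 2 of the 4.

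**Figure D4:**
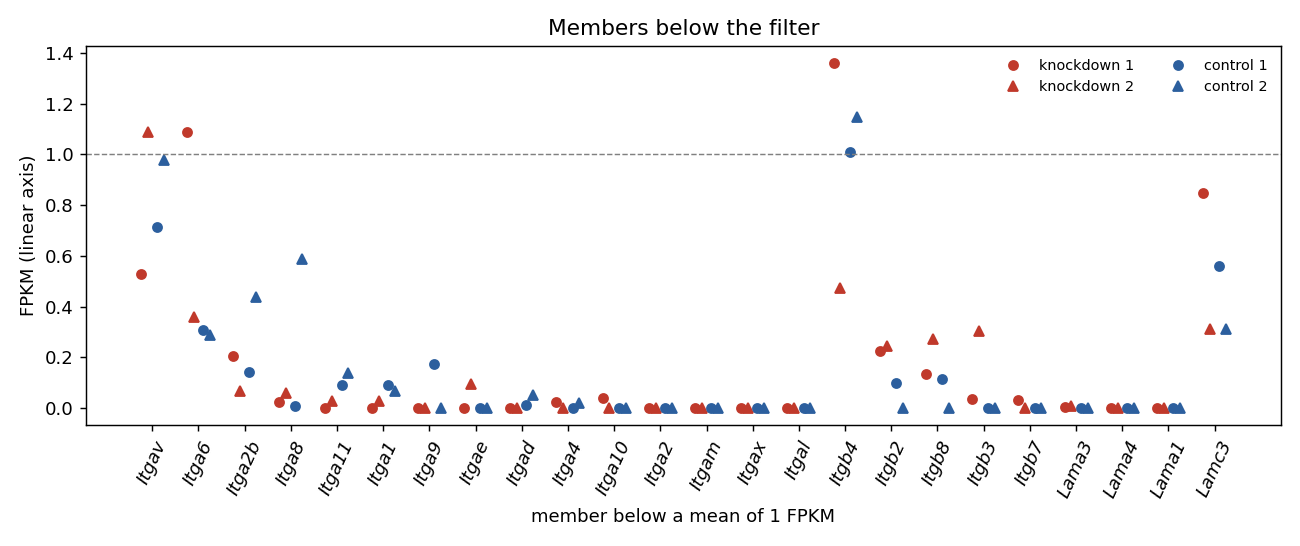
FPKM on a linear axis of the 24 members below a mean of 1 FPKM (dashed line), knockdown samples in red left of controls in blue. Single samples stand out for Itga6 (knockdown replicate 1, 1.09 FPKM) and Itga8 (control replicate 2, 0.589 FPKM).

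The partners of integrins and laminins were read from 3 lists of 80 genes in all, of which 55 could be tested. None of these was called over all genes, and at an unadjusted p under 0.05 there were 7 higher and 3 lower of the 55, where the shares over all genes were 4.39% and 2.70%. The count of 10 in either direction was 5 without control replicate 1 and 15 without knockdown replicate 1. Of the 30 adaptors and signalling proteins on the inner side of integrins, 23 were tested, 2 were higher and 0 lower at an unadjusted p under 0.05, and the median log2 fold change was 0.08. Lims1, which binds the kinase-like Ilk in adhesions, had 59.0 and 59.1 FPKM in knockdown cells against 43.4 and 49.4 in control (log2 fold change 0.34, limma adjusted p 0.640). Tln2, a talin that activates integrins by binding the beta tail, had 4.92 and 5.04 FPKM in knockdown cells against 2.98 and 3.53 in control (0.50, limma adjusted p 0.692). In both genes the knockdown samples lay above both controls. Tns2, a tensin, had a log2 fold change of 0.60 (limma adjusted p 0.698). Its means were 2.00 FPKM in knockdown cells and 0.956 in control, so it passed the filter through the knockdown samples. Vcl, the vinculin that ties talin to actin, had a log2 fold change of -0.43 (limma adjusted p 0.717). The 2 most abundant, Ilk at 114 and 125 FPKM in knockdown cells and 124 and 105 in control and the small GTPase Rap1b at 72.9 and 44.0 in knockdown cells and 40.7 and 70.6 in control, overlapped between groups.

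Of 24 genes of the basement membrane and of laminin receptors other than integrins, 13 were tested, 2 were higher and 1 lower at an unadjusted p under 0.05, and the median was -0.02, which was 0.15 without knockdown replicate 1. Dag1, the dystroglycan that binds Lama2 and connects it to dystrophin, had 79.4 and 88.7 FPKM in knockdown cells against 61.8 and 64.0 in control. Its groups did not overlap, and its log2 fold change was 0.41 ± 0.104 (SE) with a limma adjusted p of 0.595. Sdc2, a heparan sulfate proteoglycan of the cell surface, had 28.7 and 26.4 FPKM in knockdown cells against 41.8 and 36.9 in control (-0.50, limma adjusted p 0.582). Col18a1, a collagen of basement membranes, had 1.48 and 2.39 FPKM in knockdown cells against 0.165 and 0.513 in control (1.13, limma adjusted p 0.566). Its control mean was 0.339 FPKM, so it passed the filter through the knockdown samples. It is 1 of the 2 genes counted higher in this list and of the 7 over all lists. Col4a1 had 7.36 and 8.79 FPKM in knockdown cells against 6.28 and 4.82 in control (0.47, limma adjusted p 0.698). The 2 most abundant were Sparc, a collagen-binding matricellular protein, at 278 and 297 FPKM in knockdown cells against 331 and 320 in control, and Rpsa, a ribosomal protein also described as a laminin receptor, at 91.2 and 119 against 107 and 107.

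Of 26 further integrin ligands and tetraspanins, which hold integrins in membrane domains, 19 were tested, 3 were higher and 2 lower at an unadjusted p under 0.05, and the median log2 fold change was 0.16. That median was 0.051 without knockdown replicate 2, 0.26 without knockdown replicate 1 and 0.091 without control replicate 2. Tnc, the matrix protein tenascin C, had 17.0 and 20.1 FPKM in knockdown cells against 10.3 and 11.2 in control (0.73, limma adjusted p 0.523). Fn1, the fibronectin bound by the receptor of Itga5 and Itgb1, had 6.42 and 8.98 FPKM in knockdown cells against 3.65 and 5.36 in control (0.66, limma adjusted p 0.674). For both genes each knockdown sample lay above both controls. Npnt, the nephronectin bound by the receptor of Itga8 and Itgb1, had 5.23 and 3.76 FPKM in knockdown cells against 8.65 and 7.17 in control (-0.70, limma adjusted p 0.625), and Fbln5, a fibulin of elastic fibres, had 1.47 and 1.43 against 2.91 and 2.66 (-0.63, limma adjusted p 0.640). The most abundant, the integrin ligand Spp1 and the tetraspanin Cd81, had log2 fold changes of -0.00070 and 0.0040.

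**Figure D5:**
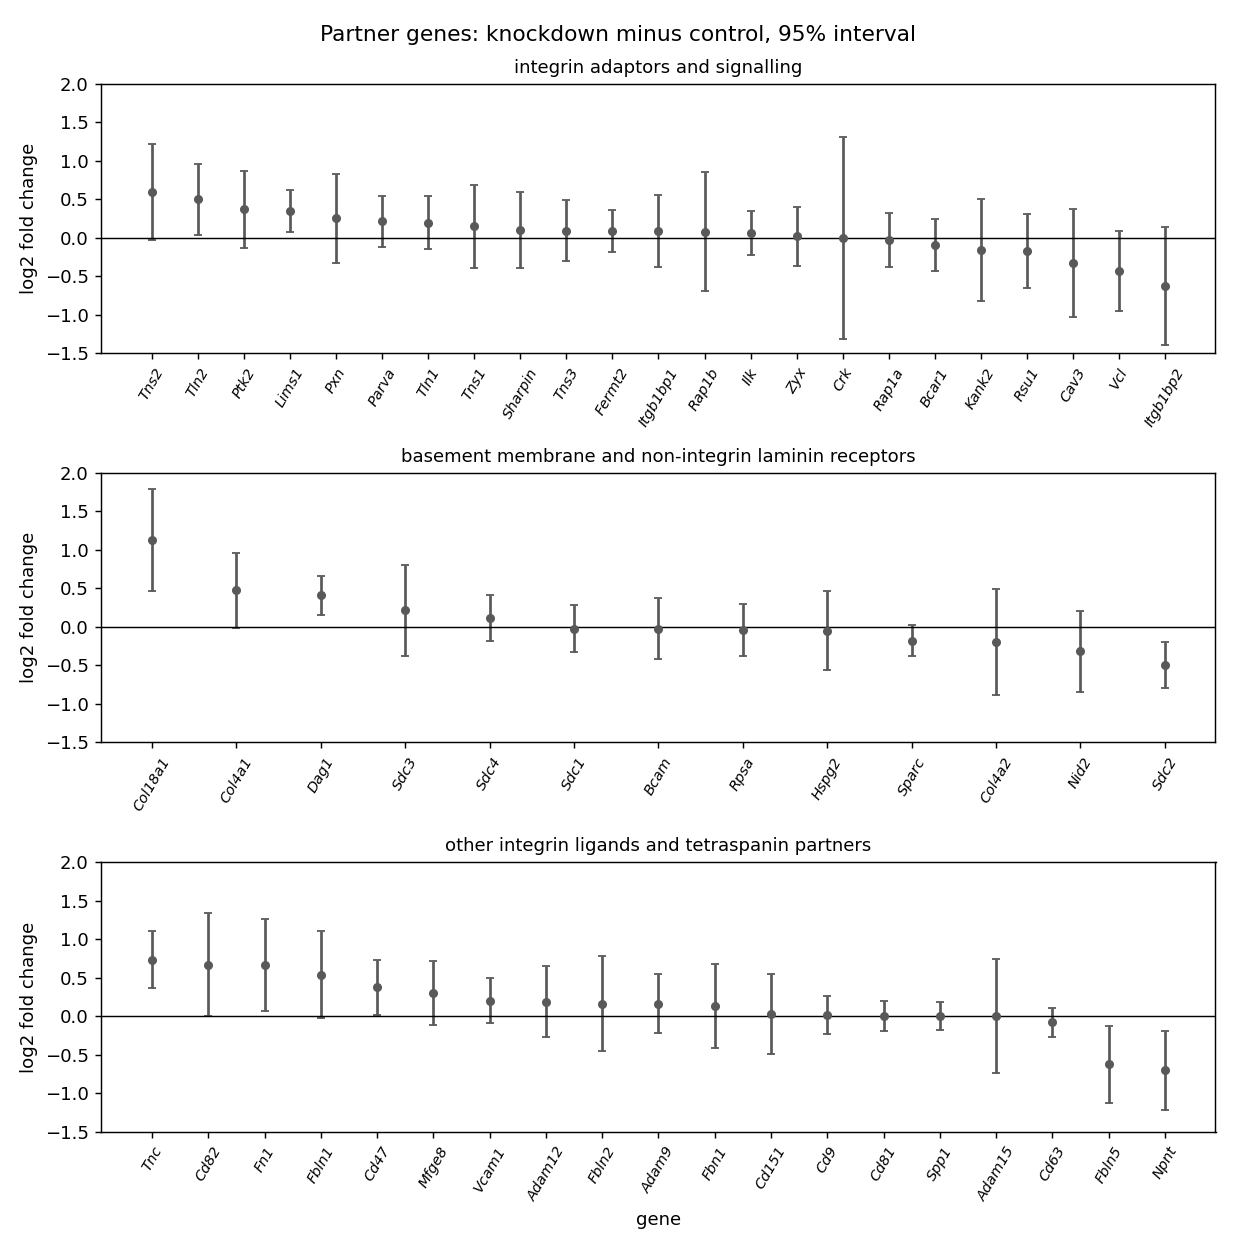
Log2 fold change of the 55 tested partner genes, knockdown minus control on log2(FPKM + 1), with 95% limma intervals, in 3 panels of 23, 13 and 19 genes. The intervals of 10 genes exclude 0, and none of the 55 was called after adjustment over all genes.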

How the data were processed

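Polyadenylated RNA of 4 samples was made into cDNA with the SMART-Seq v4 kit and sequenced as paired reads of 150 nt, per the labels' protocols. The submitters' processing notes list StringTie 1.3.3, HISAT2 2.1.0, Trimmomatic 0.36, SAMtools 1.3 and bcl2fastq 2.19, with the build mm10 and no roles. The annotation release and the strand setting are not stated. The authors deposited 1 FPKM value per gene and sample. No label names the unit, so it was read from the values. In genes with 1 exon and 1 transcript, value times length fell on whole multiples of 1 step per sample for 86.5% to 87.4% of values. The tolerance was 0.1 of a step, where a uniform spread gives 20.0%. This shows scaling by length but cannot tell FPKM from another unit scaled by length. Read numbers were estimated from that step and the longest coding transcript, assuming that 1 step is 1 base of a read, so they cover counting error only. Whole reads could not be recovered for genes of several transcripts, and no count model was fitted.

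The fit ran across all genes that averaged 1 FPKM or more, on log2(FPKM + 1), by limma 3.58.1 (R 4.3.3, trended prior variance), knockdown minus control, two-sided, threshold 0.05. The pseudocount understates changes of low genes. Degrees of freedom were 2 (residual) and 4.09 (prior), and 95% intervals had a median half-width of 0.48. The fit was tested on simulated data. Figures used Python 3.11.15 and matplotlib 3.10.9. Coordinates came from GENCODE M21 on GRCm38, which holds all 37 members. Of the members, 1 is not reported here by name, though counts and medians include it. From each partner list the 4 tested genes with the lowest p and the 2 most abundant are named. The gene family and the lists were chosen as subjects with earlier results of these data known, although the rule for members reads only symbols. Alternatives were another pseudocount, other filters, scalings and variance model, a replicate block, and leaving out each sample.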

Additional observations from a re-analysis of the deposited data

How the results depend on the processing

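No member and no partner gene was called under any of the alternatives run, with adjusted p-values of members from 0.336 to 0.9995. Of 137 values of single members under the alternatives, 132 kept their direction. The 5 that turned were Itga7 without knockdown replicate 2 (-0.27), Itga3 with quantile normalization (-0.021) and without control replicate 1 (-0.084), Itgb6 without knockdown replicate 1 (-0.0068) and Lamb3 without knockdown replicate 1 (0.14). Over the samples left out in turn, Itga7 ranged from -0.27 to 0.41, Itga3 from -0.084 to 0.17, Itgb6 from -0.0068 to 0.60 and Lamb3 from -0.36 to 0.14. The cause was not tested. Members at an unadjusted p under 0.05 numbered 0, against 3 without the filter on low values (Itgb2, Itga1 and Itga11, then tested), 1 with quantile normalization (Itgb1), 1 without the trend (Lamb1), and 0 to 4 when each sample was left out, with 1 (Itga7) without knockdown replicate 1 and 4 (Itga7, Itgb1, Itgb6 and Lamc1) without knockdown replicate 2. The lone sample left in a group is then assumed to vary like the other group. The integrin alpha median was -0.020 without the filter, over 14 genes, and 0.018 to 0.23 when each sample was left out. Over the samples left out, the integrin beta median was 0.15 to 0.37 and the laminin median -0.33 to -0.10. The filter was applied anew each time, so the genes covered could change. Without knockdown replicate 2 the laminin median of -0.33 covered 6 genes, as Lama5 fell under the filter, and the integrin beta median covered 4. With a filter at a mean of 5 FPKM the laminin median was -0.36 over 4 genes. The median of the basement membrane list was 0.15 without knockdown replicate 1 and 0.028 without control replicate 2, in a range of -0.11 to 0.15. Over all genes, the 6 calls became 0 without the filter, 3 with the replicate block, and 5 to 15 when each sample was left out, with 15 without knockdown replicate 1. Same-numbered samples did not deviate together (r = -0.02 across genes, which are not independent replicates). With 2 samples per group, this cannot show whether same-numbered samples share an animal or a culture. The 2 samples per group and about 40 reads per FPKM and kilobase limit what could be detected.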
